A study of Mus musculus with 4 samples.

Results

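Transcripts of 10 chemokine genes were examined in 4T1, a mouse breast cancer line that is used as a model of metastasis. The genes were *Cxcl1*, *Cxcl2*, *Cxcl5*, *Cxcl10*, *Cxcl16*, *Ccl2*, *Ccl5*, *Ccl7*, *Ccl20* and *Cx3cl1*, chosen by name from the 20197 genes of the table, and all 10 were listed in it. RNA was measured, so nothing here bears on secreted protein. The cells, labelled WT in both groups, were stained with MitoSpy Red at 20 nM, a dye that enters mitochondria according to their membrane potential (MMP). The top 5% by staining were sorted as high MMP cells and the bottom 5% as low MMP cells. There were 2 libraries per group, each from 100000 cells of this single cultured line. The study counts the libraries of a group as independent experiments. No label says whether libraries with the same number came from the same experiment. In such bulk RNA, fewer cells making a transcript and less of it per cell cannot be told apart.

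Chemokines are small secreted proteins that draw cells along a gradient by binding receptors of the G-protein-coupled class. Their families are named by the spacing of the first cysteines. The CXC chemokines that carry a Glu-Leu-Arg motif, such as *Cxcl1*, *Cxcl2* and *Cxcl5*, recruit neutrophils through CXCR2, and 4T1 tumors are known for a strong expansion of neutrophils and related myeloid cells. CC chemokines such as *Ccl2* recruit monocytes and macrophages, and *Cxcl10* recruits T cells through CXCR3. Many of these genes are switched on by NF-kB and have short-lived mRNA.

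The recovered depth was 22591970 to 26395015 reads per library. Values below are normalized reads, which sum to 20000000 in each library, so that 1 read is worth 0.758 to 0.885 units. The epithelial markers *Epcam*, *Krt8*, *Krt18*, *Cdh1*, *Krt14* and *Cldn4* were all listed, with summed levels of 54172 and 41939 in the high MMP libraries against 46661 and 53334 in the low. These sums came mainly from *Krt8* and *Krt18*, whose groups overlapped, as did those of *Epcam*. *Cdh1* was lower in both high MMP libraries (log2 difference -0.34), and *Krt14* (0.32) and *Cldn4* (0.25) were higher in both. None of the markers passed the limma test. Of 10 leukocyte markers 5 were listed, with sums of 385 to 392 in the high and 380 to 390 in the low MMP libraries. Those sums came mainly from *Cd14* and *Cd68*, while the pan-leukocyte gene *Ptprc* had at most 2 reads per library and *Itgam*, *Adgre1*, *Cd3e* and *Lyz2* were not listed. Of 5 fibroblast markers 3 were listed, with sums of 334 and 374 in the high MMP libraries against 548 and 604 in the low, almost all from *Pdgfra*. *Pdgfra* had a log2 difference of -0.72 (limma adjusted p = 0.472) and passed with DESeq2 on recovered reads (adjusted p = 0.0399). Of 5 endothelial markers 2 were listed, with sums of 1.74 to 6.20. The part of these markers in the results below was not tested.

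No chemokine of the 10 differed between high and low MMP cells after adjustment with limma (threshold 0.05), by which 0% of all genes passed. On recovered reads no member passed with edgeR (0% of all genes) or edgeR with the replicate number as a block (0.525%). No member passed with edgeR with crossed numbers (3.63%), which blocks high MMP 1 with low MMP 2 and was added after seeing the data. With DESeq2 no member passed either, beside 0.985% of the 11974 genes that were given an adjusted p. *Cxcl16* alone had an unadjusted p under 0.05, which is 1 of 10 genes where 9.96% of all genes had such a p. It was also the single member whose groups did not overlap, where 37.9% of all genes did not overlap, 13.5% being higher in both high MMP libraries and 24.5% lower in both. Means on the log2 scale were higher in high MMP cells for 6 members and lower for 4, with a median log2 difference of 0.14 beside -0.04 over all genes tested. The values of each gene in each library follow, by family.

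**Figure D1:**
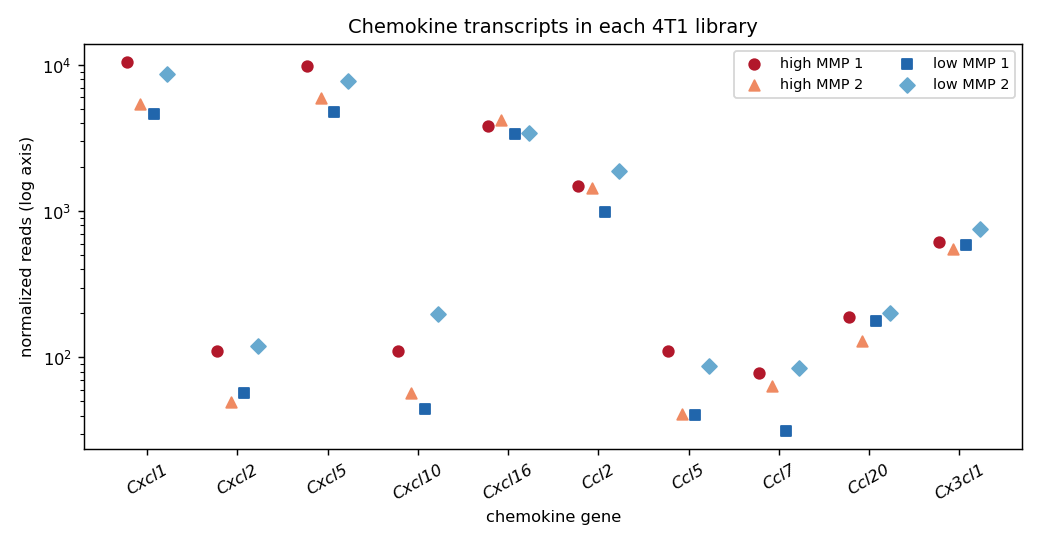
Normalized reads (log axis) of the 10 chemokine genes in the 2 high MMP libraries (red circles and orange triangles) and the 2 low MMP libraries (dark blue squares and light blue diamonds). For 9 genes the points of high MMP 1 and low MMP 2 lie above those of high MMP 2 and low MMP 1. For *Cxcl1*, *Cxcl2*, *Cxcl5*, *Cxcl10* and *Ccl5* the gap is over 1.5-fold within both groups. For *Cxcl16* alone both high MMP points lie above both low MMP points.

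The neutrophil-recruiting CXC chemokines *Cxcl1* and *Cxcl5* were the most abundant members per transcript length. *Cxcl1* (ENSMUSG00000029380, GRCm38 chromosome 5, 90891241 to 90893115), known as KC, had 10422 and 5426 normalized reads in high MMP libraries 1 and 2, against 4590 and 8674 in low MMP libraries 1 and 2. High MMP 1 and low MMP 2 were thus the high libraries, each 1.92-fold and 1.89-fold above the other library of its group, and the groups overlapped. The group means were 7924 ± 3532 (high MMP) and 6632 ± 2888 (low MMP), with the SD over 2 libraries, and the log2 difference was 0.25 (SE 0.46, 95% interval -1.0 to 1.51, limma adjusted p = 0.938). The difference turned to -0.22 without high MMP 1 and to -0.21 without low MMP 1.

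*Cxcl5* (ENSMUSG00000029371, chromosome 5, 90759360 to 90761624), also called LIX in the mouse, had 9844 and 5934 in the high MMP libraries against 4742 and 7723 in the low. Again high MMP 1 and low MMP 2 were highest and the groups overlapped. Its log2 difference was 0.34 (SE 0.36, 95% interval -0.64 to 1.31, adjusted p = 0.855), and -0.028 without high MMP 1 or -0.015 without low MMP 1. The ratio of *Cxcl1* to *Cxcl5* normalized reads stayed between 0.914 and 1.12 across the 4 libraries. Both genes together made up 0.101% of the reads in high MMP 1 (0.1001% to 0.103%, a 95% Wilson interval), 0.0568% in high MMP 2 (0.0559% to 0.0578%), 0.0467% in low MMP 1 (0.0458% to 0.0475%) and 0.0820% in low MMP 2 (0.0808% to 0.0832%). These intervals, which cover counting error only, did not overlap between any pair of libraries.

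*Cxcl2* (ENSMUSG00000058427, chromosome 5, 90903871 to 90905938), known as MIP-2, lies next to *Cxcl1*. It had 111 and 49.4 normalized reads in the high MMP libraries against 57.5 and 120 in the low, on 146, 59, 66 and 136 reads. The order of libraries was again split within the groups, with gaps of 2.24-fold between the high MMP and 2.09-fold between the low MMP libraries. The log2 difference was -0.17 (SE 0.56, 95% interval -1.68 to 1.35, adjusted p = 0.976), which turned to 0.41 without high MMP 2 and 0.36 without low MMP 2.

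*Cxcl10* (ENSMUSG00000034855, chromosome 5, 92346638 to 92348889), the interferon-inducible ligand of CXCR3, had the widest spread of the 10. Its values were 111 and 56.9 in the high MMP libraries against 44.5 and 198 in the low, on 146, 68, 51 and 224 reads. Low MMP 2 was highest and low MMP 1 lowest, a 4.46-fold gap within the low MMP group that enclosed both high MMP values. The log2 difference of -0.24 had an SE of 0.82 (95% interval -2.46 to 1.98, adjusted p = 0.977). It was -0.49 in both edgeR and DESeq2, and turned to 0.23 without high MMP 2 and 0.82 without low MMP 2.

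*Cxcl16* and *Cx3cl1* encode the chemokines that are made as membrane-anchored proteins and can be shed by proteases. *Cxcl16* (ENSMUSG00000018920, chromosome 11, 70453983 to 70459984), the ligand of CXCR6, had 3833 and 4200 normalized reads in the high MMP libraries against 3359 and 3432 in the low. Both high MMP libraries were above both low MMP libraries, and the replicates were close, at 4016 ± 260 and 3396 ± 51.8 (SD, n = 2 each). This was a 1.18-fold ratio of means, or a log2 difference of 0.24 (SE 0.09, unadjusted p = 0.0496, limma adjusted p = 0.498). With any single library left out the difference stayed between 0.17 and 0.31.

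*Cx3cl1* (ENSMUSG00000031778, chromosome 8, 94772009 to 94782427), or fractalkine, had 615 and 551 in the high MMP libraries against 589 and 760 in the low. Low MMP 2 was above the other 3 libraries, which lay close together, and the groups overlapped. The log2 difference was -0.20 (SE 0.16, 95% interval -0.63 to 0.23, adjusted p = 0.784) and ran from -0.38 without low MMP 1 to -0.018, close to 0, without low MMP 2. In the same cells its receptor gene *Cx3cr1* had 41.7 and 43.5 in the high MMP libraries against 25.3 and 28.3 in the low.

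Among the CC chemokines, *Ccl2* (ENSMUSG00000035385, chromosome 11, 82035571 to 82037453), the monocyte chemoattractant MCP-1, was the most abundant per transcript length. It had 1487 and 1435 normalized reads in the high MMP libraries against 992 and 1889 in the low. The high MMP libraries were nearly equal and sat between the low MMP libraries, which were 1.90-fold apart. The log2 difference was 0.09 (SE 0.33, 95% interval -0.80 to 0.99, adjusted p = 0.979), and -0.37 without low MMP 1.

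*Ccl7* (ENSMUSG00000035373, chromosome 11, 82045712 to 82047525), or MCP-3, which shares the receptor CCR2 with *Ccl2* and lies 8258 bases downstream of it, had 78.0 and 63.6 in the high MMP libraries against 31.4 and 84.1 in the low. Low MMP 1 was lowest, as for *Ccl2*, and low MMP 2 highest, 2.68-fold apart. The log2 difference of 0.44 was the largest of the 10 in size but had an SE of 0.52 (95% interval -0.96 to 1.85, adjusted p = 0.866), and it turned to -0.25 without low MMP 1. The ratio of *Ccl2* to *Ccl7* normalized reads ran from 19.1 to 31.6.

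*Ccl5* (ENSMUSG00000035042, chromosome 11, 83525778 to 83530518), or RANTES, which recruits T cells and monocytes, had 111 and 41.0 in the high MMP libraries against 40.1 and 86.8 in the low, on 146, 49, 46 and 98 reads. High MMP 1 and low MMP 2 stood above the other 2 libraries by 2.70-fold and 2.16-fold within their groups. The log2 difference was 0.19 (SE 0.64, 95% interval -1.54 to 1.92, adjusted p = 0.977), 0.31 in both edgeR and DESeq2, and -0.52 without high MMP 1 or -0.36 without low MMP 1.

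*Ccl20* (ENSMUSG00000026166, chromosome 1, 83116766 to 83119167), the ligand of CCR6, had 189 and 130 in the high MMP libraries against 177 and 202 in the low. High MMP 2 was the low library here, and low MMP 1 was not. The log2 difference was -0.27 (SE 0.23, 95% interval -0.88 to 0.34, adjusted p = 0.795), and it ran from -0.54 without high MMP 1 to -0.0025, close to 0, without high MMP 2.

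**Figure D2:**
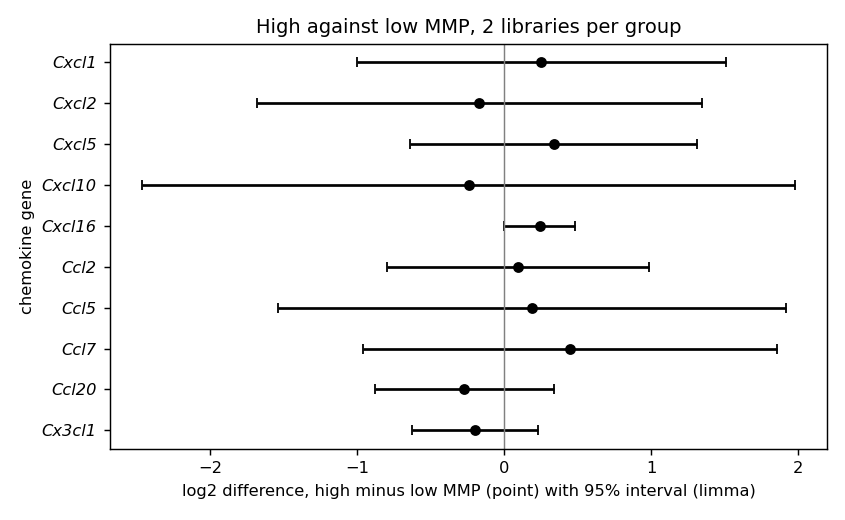
Log2 difference of each chemokine gene between high and low MMP cells on the log2(value + 1) scale (points) with the 95% interval from limma (bars), 2 libraries per group. The interval of *Cxcl16* is narrow with its lower end just above 0, and that of *Cxcl10* is the widest, from -2.46 to 1.98.

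The gaps between libraries of the same group were wide for these genes. High MMP 1 and low MMP 2 were the 2 highest libraries for 9 of the 10 members, all but *Cxcl16*, an order found in 22.2% of the 12902 genes that averaged 10 or more. The high MMP libraries were over 1.5-fold apart for 5 members (10.87% of those genes) and the low MMP libraries for 7 (5.29% of those genes). The median absolute log2 gap of the members was 0.63 between the high MMP and 0.92 between the low MMP libraries, beside 0.21 and 0.11 over the 12902 genes. High MMP 1 over high MMP 2 and low MMP 2 over low MMP 1 were both past 1.5-fold for *Cxcl1*, *Cxcl2*, *Cxcl5*, *Cxcl10* and *Ccl5*, and for 158 genes in all (1.225%). For 9 of 10 members, those whose groups overlapped, the difference between the groups was smaller than the larger of the replicate gaps. With 2 libraries per group any overlap entails this, and of all genes only 37.9% had groups without overlap. The members were chosen with earlier results of these libraries known, so these counts are a description and carry no test.

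Same-numbered libraries differed in opposite directions. All 10 members were higher in high MMP 1 than in low MMP 1, and 9 of 10 were lower in high MMP 2 than in low MMP 2, the exception being *Cxcl16*. For those 9 both directions follow from the order of libraries given above, which 22.2% of the 12902 genes had. Opposite directions were thus not confined to the members, though the full share of genes with opposite directions was not counted. Over the 12902 genes, deviations of same-numbered libraries from their group means correlated at -0.414. The low MMP 1 library was lowest for 7 members and high MMP 2 for 3. All 10 members together took 0.134% and 0.0894% of reads in the high MMP libraries against 0.0731% and 0.116% in the low, so the summed share overlapped between the groups too.

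**Figure D3:**
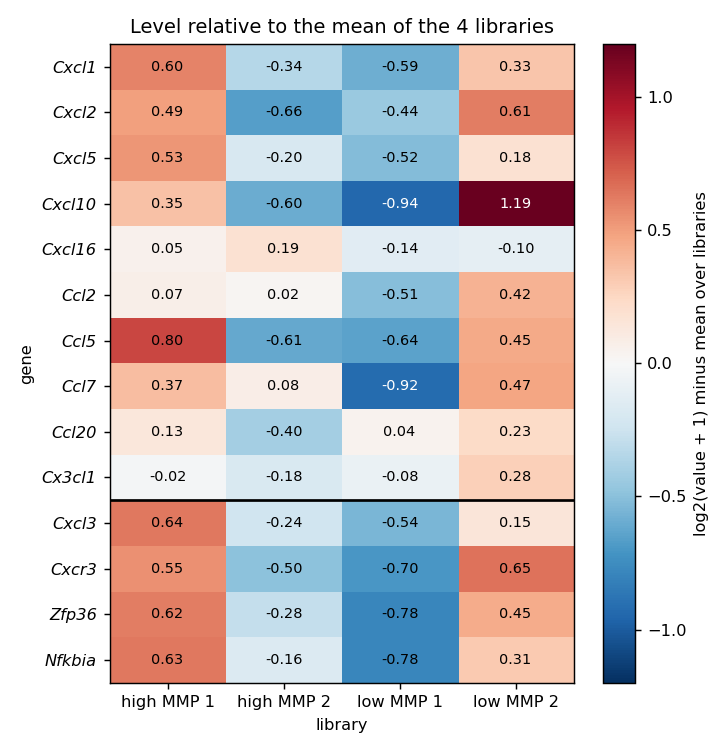
Deviation of log2(value + 1) from the mean of the 4 libraries, for the 10 chemokine genes (above the line) and for *Cxcl3*, *Cxcr3*, *Zfp36* and *Nfkbia*, picked after seeing their values (below it). Most rows are positive in high MMP 1 and low MMP 2 and negative in high MMP 2 and low MMP 1, with 1.19 for *Cxcl10* in low MMP 2 as the highest value and -0.94 for *Cxcl10* in low MMP 1 as the lowest.

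Corrected for transcript length, the members spanned a wide range of levels. Normalized reads were divided by the length of the longest protein-coding transcript and scaled so that 13685 protein-coding genes sum to 1000000 in each library. On this scale *Cxcl1* had 945 ± 331 (SD over 4 libraries) and ranked 139th of those genes, *Cxcl5* had 556 ± 160, *Ccl2* 222 ± 54.2 and *Cxcl16* 171 ± 19.9. *Cxcl1* was above *Cxcl5* in 4 of 4 libraries although their ranges overlapped, and the range of *Cxcl5* lay above that of *Ccl2*. *Ccl2* was above *Cxcl16* in 3 of 4 libraries, so this pair was not ordered beyond its spread. A gap then separated *Cxcl16*, at 157 or more, from the other 6 members, which were all at or below 28.3.

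Those 6 followed in the order *Cx3cl1* (23.6 ± 3.18), *Ccl5* (16.2 ± 7.70), *Ccl20* (15.3 ± 2.50), *Ccl7* (9.96 ± 3.52), *Cxcl10* (9.38 ± 6.31) and *Cxcl2* (5.62 ± 2.30), all per length on the same scale, with the SD over 4 libraries. Each overlapped its next neighbour in range. *Ccl5* depended on the length used: with all annotated exons merged it moved from place 6 to place 8 of the 10. The neutrophil-recruiting pair *Cxcl1* and *Cxcl5* made up 63.5% to 75.6% of the reads of the 10 members in every library.

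**Figure D4:**
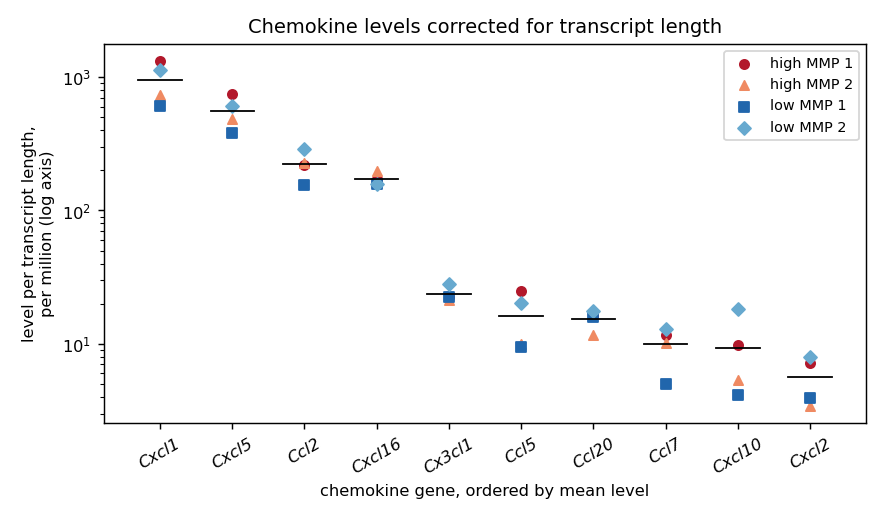
Level of each chemokine gene per transcript length, scaled to a sum of 1000000 over protein-coding genes (log axis), in each of the 4 libraries (colored points) with the mean over libraries (black line). The upper 4 genes, *Cxcl1*, *Cxcl5*, *Ccl2* and *Cxcl16*, are separated from the lower 6, whose ranges overlap their neighbours.

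The RefSeq promoter table (GRCm38.p6) held 5 of the 10 members (*Cxcl1*, *Cxcl2*, *Cxcl10*, *Ccl20* and *Cx3cl1*). The stretch upstream of the start site is shown for those of them whose libraries were over 1.5-fold apart in both groups. *Ccl20* and *Cx3cl1*, which had the same 2 libraries highest but with smaller gaps, are not shown. The runs shown are also those with a kB match, and whether the motif goes with the gaps was not tested. Each run below is 200 bases, from 250 to 51 bases before the start, on the strand of the gene, with matches to the kB motif (GGGA and TTCC with any 2 bases between them, the kind of site that NF-kB binds, searched on both strands) in capitals.
*Cxcl1*, chr5:90890995-90891194, plus strand: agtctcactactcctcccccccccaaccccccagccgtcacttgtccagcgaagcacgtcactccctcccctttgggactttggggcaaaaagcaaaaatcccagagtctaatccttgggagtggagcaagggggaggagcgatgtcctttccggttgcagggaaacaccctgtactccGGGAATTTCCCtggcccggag
*Cxcl2*, chr5:90903649-90903848, plus strand: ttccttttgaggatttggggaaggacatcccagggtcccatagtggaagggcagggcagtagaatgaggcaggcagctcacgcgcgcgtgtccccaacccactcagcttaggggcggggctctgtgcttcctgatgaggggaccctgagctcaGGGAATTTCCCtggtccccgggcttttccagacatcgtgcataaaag
*Cxcl10*, chr5:92348940-92349139, minus strand: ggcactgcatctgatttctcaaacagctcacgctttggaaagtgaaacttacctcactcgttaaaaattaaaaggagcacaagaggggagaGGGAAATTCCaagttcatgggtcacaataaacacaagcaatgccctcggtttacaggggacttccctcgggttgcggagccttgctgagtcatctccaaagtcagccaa

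*Cxcl1* and *Cxcl2* carried the same 11 letters, GGGAATTTCCC, in which a match on the gene's strand and a match on the other strand overlap, beginning 71 and 97 bases before the start. In *Cxcl10* the match began 159 bases before the start. Over the 250 bases before the start, the kB letters were present in 1.2% of all 32851 promoter windows of the table. *Ccl20* and *Cx3cl1* had no match to these letters in their windows. Sites for NF-kB that are spelled otherwise were not searched in any gene, so they can be present without capitals. Of the other motifs searched on both strands, AP-1 (TGANTCA, in 6.7% of windows) and the interferon-response motif (TTTC and TTTC with any 2 bases between them, in 3% of windows) matched in *Cxcl10* alone, at 74 and 213 bases before the start, and TATAAA (in 12.4% of windows) in *Cx3cl1* alone, at 6 bases before it. None of these matches overlapped a kB match. The starts are those of RefSeq and can differ from the gene positions given above. For *Cx3cl1* the RefSeq start lies inside the gene interval given above, as do part of its window and the TATAAA match. A match of letters does not show binding.

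*Ccl20* and *Cxcl16* lie far from the other chemokine ligand genes, the nearest being 8.18e+07 and 1.16e+07 bases away. The other members sit in gene clusters in which most neighbours were low or not listed. On chromosome 5, between *Cxcl5* and *Cxcl2*, *Cxcl3* was detected with 56.7 to 130 normalized reads and *Ppbp* with 11.3 to 18.9, whereas *Pf4* and *Cxcl15* were not listed. *Cxcl10* is flanked by *Cxcl9* and *Cxcl11*, the other ligands of CXCR3, which had at most 6 and 10 reads per library. On chromosome 11, *Ccl2* and *Ccl7* are followed by *Ccl11*, *Ccl12*, *Ccl8* and *Ccl1*, none of which was listed. *Ccl5* is followed by *Ccl9* (7.85 to 12.1), *Ccl6* (at most 9 reads), *Ccl3* (not listed) and *Ccl4* (at most 4 reads). *Cx3cl1* on chromosome 8 lies between *Ccl22*, which was not listed, and *Ccl17*, with at most 2 reads.

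Beyond the members, 9 of 28 other chemokine ligand genes were listed and 0 passed the limma test. Their median log2 difference was 0.25, but only 4 had a mean of at least 10. *Ccl25*, a chemokine of the gut and thymus, had 93.2 and 79.5 in the high MMP libraries against 105 and 131 in the low, without overlap (log2 difference -0.45, SE 0.19, adjusted p = 0.571). *Cxcl3*, another CXCR2 ligand, had 130 and 70.3 in the high MMP libraries against 56.7 and 92.1 in the low, the same order of libraries as *Cxcl1* and *Cxcl5* (0.40, SE 0.41, adjusted p = 0.854). *Ppbp*, the platelet basic protein gene, had 25 and 18 reads against 13 and 17 (0.35, SE 0.32, adjusted p = 0.818).

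Of 23 chemokine receptor genes 10 were listed, and 0 passed. The fractalkine receptor *Cx3cr1* was higher in both high MMP libraries, on 55 and 52 reads against 29 and 32, with a log2 difference of 0.65 (SE 0.22, 95% interval 0.07 to 1.24, unadjusted p = 0.0364, limma adjusted p = 0.472). The scavenger receptor *Ackr3* was the most abundant, at 775 and 757 in the high MMP libraries against 644 and 751 in the low (0.14, SE 0.11, adjusted p = 0.776). *Cxcr3* had 92.4 and 44.4 in the high MMP libraries against 38.4 and 99.2 in the low, thus following the order of libraries of its ligand *Cxcl10*, with a log2 difference of 0.05 (SE 0.61, adjusted p = 0.994). *Cxcr2*, the receptor of *Cxcl1*, *Cxcl2* and *Cxcl5*, had 3 and 0 reads in the high and 4 and 4 in the low MMP libraries, too few for the depth to show a difference. *Ccr2*, *Ccr6* and *Cxcr6*, the receptors of *Ccl2* and *Ccl7*, of *Ccl20* and of *Cxcl16*, were not listed in the table, which held 0 genes above 0 in fewer than 2 libraries.

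Of 13 genes for proteases that trim or shed chemokines and for their partners, 11 were listed and 0 passed, with a median log2 difference of -0.12. *Adam10* and *Adam17* encode the sheddases of CX3CL1 and CXCL16. *Adam17* had 1957 and 2626 in the high MMP libraries against 2933 and 2714 in the low, without overlap (-0.32, SE 0.17, adjusted p = 0.668). *Adam10* had 2233 and 2783 against 2956 and 2619, with overlap (-0.16, SE 0.14, adjusted p = 0.819). *Adam8* differed by -0.31 (SE 0.23, adjusted p = 0.766) and the cathepsin gene *Ctsc* by -0.25 (SE 0.11, adjusted p = 0.589).

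Among regulators of chemokine mRNA decay, all 13 genes were listed and 0 passed, with a median log2 difference of 0.03. *Zfp36* encodes tristetraprolin, which destabilizes AU-rich cytokine and chemokine mRNA. It had 3641 and 1951 in the high MMP libraries against 1382 and 3239 in the low, the same split as *Cxcl1* (0.33, SE 0.53, adjusted p = 0.925). High MMP 1 and low MMP 2 were the 2 highest libraries for 7 of these 13 genes, an order found in 22.2% of the 12902 genes that averaged 10 or more. That order takes no account of the size of the gaps, and several of the 7 genes differed little across the libraries. *Tia1* differed by -0.25 (SE 0.19, adjusted p = 0.774) and *Arid5a* by 0.18 (SE 0.14, adjusted p = 0.783).

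All 17 NF-kB subunit and feedback genes were listed and 0 passed, with a median log2 difference of 0.08. In this list 8 genes were higher in both high MMP libraries, where 13.5% of all genes were, and 2 were lower in both. *Tnfaip3*, the feedback inhibitor A20, had 5222 and 5295 in the high MMP libraries against 3190 and 4379 in the low (0.49, SE 0.18, unadjusted p = 0.0454, limma adjusted p = 0.488). *Nfkbia*, which encodes IkB-alpha, instead had 3812 and 2192 in the high MMP libraries against 1428 and 3051 in the low, so that its groups overlapped in the manner of *Cxcl1* (0.47, SE 0.47, adjusted p = 0.845). *Nfkbiz*, a coactivator at NF-kB target genes, had 2787 and 2521 against 1793 and 2408 (0.35, SE 0.17, adjusted p = 0.628). *Nfkbia* was the single gene of the 17 with high MMP 1 and low MMP 2 as its highest libraries.

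Among the genes of the hand-compiled interferon list that averaged 10 or more normalized reads, the 3 with the largest differences in size were all lower on average in high MMP cells, and none of the 3 passed the limma test. *Rsad2*, an antiviral gene, had 56.8 and 36.0 in the high MMP libraries against 44.5 and 104 in the low (-0.58, SE 0.50, adjusted p = 0.810). *Irf7*, a regulator of type I interferon genes, had 46.2 and 20.9 against 34.9 and 62.0 (-0.56, SE 0.51, adjusted p = 0.819), and *Oasl1* had 167 and 106 against 115 and 269 (-0.40, SE 0.49, adjusted p = 0.874). Low MMP 2 was the highest library for each of these genes, as it was for *Cxcl10*.

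**Figure D5:**
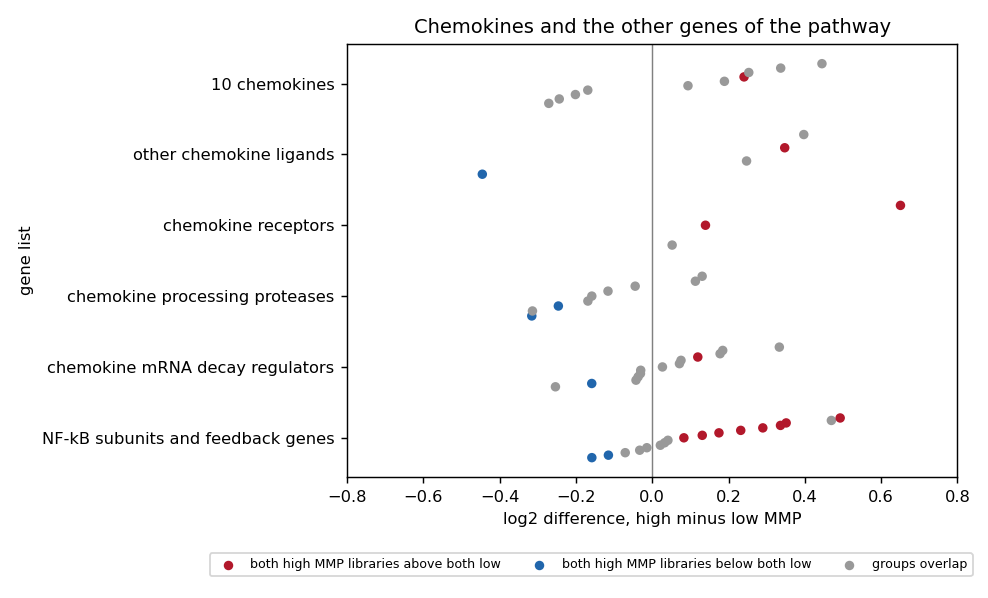
Log2 difference between high and low MMP cells for the 10 chemokine genes and for the genes of 5 related lists that averaged 10 or more normalized reads. Points are colored by whether both high MMP libraries were above both low (red), below both low (blue) or the groups overlapped (gray). *Cxcl16* is the single red point among the 10 chemokines, and no gene shown passed the limma test.

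The genes whose profile over the 4 libraries was most like *Cxcl1* and *Cxcl5* were sought among the 9999 genes that averaged 100 or more, by the largest gap between profiles centred on the log2 scale. For *Cxcl1* these were *Lgr6*, an R-spondin receptor gene (449 and 239 in the high, 207 and 376 in the low MMP libraries, largest gap 0.04), then *Osgin1* (0.14) and *Cxcl5* itself (0.15). For *Cxcl5* they were *Ifi27*, an interferon-inducible gene (811 and 537 in the high, 404 and 674 in the low MMP libraries, gap 0.07), *Ier5l* (0.10) and *Ehf*, an epithelial transcription factor of the ETS family (0.10). With 4 libraries, many profiles can be alike.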

How the data were processed

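RNA-sequencing values of 4 libraries were analysed. The authors aligned reads (75 cycles, from a stranded mRNA preparation of 200 ng of RNA) to GRCm38/mm10 with STAR, and HTSeq is also named in the submitters' processing notes. Versions and the handling of shared reads are not given in the sources used here. The deposited values are a normalized signal per gene, divided by the authors by library size and filtered to genes detected in at least 2 samples. Dividing by the smallest step recovered whole reads for 100% of values (tolerance 0.01). There were 0 columns of no sample.

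Groups came from the sample titles. Values were tested as log2(value + 1), a scale that understates changes of low genes, with limma 3.58.1 (trend; R 4.3.3), group as the only factor and Benjamini-Hochberg adjustment over all 20197 genes (threshold 0.05). Positions and transcript lengths are from GENCODE M21 (GRCm38). Replicates differed by more than sampling noise (chi-square per gene 47.19 and 9.83). With 2 against 2 libraries, an exact two-sided permutation test cannot go below 0.333, so none was used. edgeR 4.0.16 and DESeq2 1.42.0 were run on recovered reads as alternatives. The main limma fit, edgeR with and without the replicate block, and DESeq2 were tried on simulated counts. The spread of those counts was a set value, not taken from these libraries, and the other fits were not simulated.

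The members, and the lists of related genes compiled by hand, were chosen with earlier results of these data known. *Sting1* was matched, after the values were seen, by its older symbol *Tmem173*. Counts over the interferon list and a few genes are not reported here. In the related lists, the 3 genes with the largest absolute log2 difference among genes averaging 10 or more were named, together with receptors and sheddases of the members. Of the members' nearest profiles, 3 genes were named for each of the 2 most abundant. Genes named as neighbours in the clusters, and *Cxcl9* and *Cxcl11*, lie outside this rule.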

Additional observations from a re-analysis of the deposited data

How the results depend on the processing

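No member passed an adjusted p of 0.05 in any of the 17 alternatives (pseudocounts 0.5 and 5, filters on the mean, 2 rescalings, no trend, edgeR, DESeq2, replicate block, crossed numbers, single libraries left out), and the smallest adjusted p of any member was 0.051, for *Cxcl5* in edgeR with crossed numbers. The replicate numbers of the titles were not taken to pair the samples (correlation of deviations -0.414), and with them as a replicate block the count of members called was 0 in both limma and edgeR. With crossed numbers (high MMP 1 with low MMP 2), a fit chosen after seeing the data, edgeR called 3.63% of all genes, 0 members, 4 NF-kB genes, 1 mRNA decay gene and the markers *Krt14* and *Pdgfra*, against 0 in each pathway list otherwise, and the cause was not tested. DESeq2 also called *Pdgfra*. The count of members whose groups did not overlap was 1 under both rescalings. Of 170 values of the members' log2 difference, 158 kept their direction, and the other 12, from 7 members, reversed when 1 library was left out. The ranges over the 4 omissions were -0.22 to 0.72 for *Cxcl1*, -0.74 to 0.41 for *Cxcl2*, -0.028 to 0.70 for *Cxcl5*, -1.31 to 0.82 for *Cxcl10*, -0.37 to 0.56 for *Ccl2*, -0.52 to 0.89 for *Ccl5*, -0.25 to 1.14 for *Ccl7*, -0.54 to -0.0025 for *Ccl20* and -0.38 to -0.018 for *Cx3cl1*. Of the other alternatives, some moved the size by over 1.5 times, for *Cxcl10* (-0.16 to -0.49), *Cxcl2* (-0.09 with quantile normalization, -0.11 in edgeR, -0.10 in DESeq2), *Ccl5* (0.30 with quantile normalization, 0.31 in edgeR and DESeq2) and *Ccl2* (0.06 in edgeR). Leaving out a library leaves 1 sample in a group, which is assumed to vary like the other group. The lowest count of a member was 36 reads (*Ccl7*, low MMP 1), and the part of counting error in the gaps was not tested.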
